A study of Marmota monax with 203 samples.

Results

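The genes described here are 10 genes of fetal liver, of liver progenitor and bile duct cells and of liver cancer: AFP, GPC3, IGF2, MYCN, MYC, SOX9, KRT19, KRT7, EPCAM and SPP1. They were chosen by symbol, and all 10 were found among the 17587 genes with reads in at least 1 sequencing run. RNA-Seq was done on liver biopsies of adult woodchucks (Marmota monax) with chronic woodchuck hepatitis virus (WHV) infection, established in both arms by infection of newborns, which leads to hepatocellular carcinoma (HCC) in many carriers. The wIFN-α arm received woodchuck interferon-α under the skin 3 times a week, at 20 μg in the low dose weeks 0 and 3 and at 100 μg in the high dose weeks 7, 11 and 15, and weeks 19 and 23 were follow-up without treatment. The placebo arm received vehicle on the same days. Dosing starts in week 0 here, which is week 1 in the labels. The placebo arm gave 12, 12, 12, 12, 10, 9, 5 and 9 biopsies at weeks -3, 0, 3, 7, 11, 15, 19 and 23, and the wIFN-α arm 11, 11, 9, 9, 8, 8, 6 and 6, each from a different animal. The numbers fell in part because several animals died during the study, so the later groups lack these animals. Some living animals also gave no compared biopsy at a week, as the placebo arm had 5 biopsies at week 19 and 9 at week 23. The labels do not say whether a biopsy held tumour tissue.

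AFP (α-fetoprotein) is the main plasma protein of the fetal liver, is shut off in the adult liver and returns in many hepatocellular carcinomas. GPC3 (glypican 3, a proteoglycan of the cell surface) and IGF2 (a fetal growth factor) follow a similar pattern in humans, and woodchuck tumours are known for activation of MYC family genes, above all N-myc, by inserted WHV DNA. SOX9, the keratins KRT19 and KRT7 and the adhesion protein EPCAM mark bile duct cells and the progenitor cells that appear in injured liver. SPP1 (osteopontin) is a secreted matrix protein made by bile duct cells, activated macrophages and tumours.

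In the 149 biopsies compared, 12072840 to 84805845 reads lay on genes, with a median of 28754894. Levels are given as CPM, the reads of a gene per 1000000 reads of the TMM-scaled library size of its biopsy. In 5 biopsies over 5% of reads lay on 20 skeletal muscle genes, against at most 2.86% in the others. These were placebo animals F1016 at week -3 (13.9%) and F1021 (11.9%) and M1011 (5.27%) at week 3, and wIFN-α animals F1018 at week -3 (14.3%) and F1023 at week 0 (7.76%). The summed level of 12 hepatocyte genes was 5959 CPM in F1016 and 2915 CPM in F1018 at week -3, where the medians of the arms were 147499 and 146624 CPM. Placebo animal M1008 was sequenced in 2 runs at week 15 under 1 barcode, and these gave SOX9 levels of 120.2 and 151.4 CPM before scaling. As a check of treatment, MX1, an antiviral interferon-stimulated gene, was higher in the wIFN-α arm by log2 fold changes of 3.47 to 3.83 in the 5 treatment weeks (edgeR adjusted p at most 4.62e-08). In bulk tissue, fewer cells of a type and less RNA per cell cannot be told apart.

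**Figure D1:**
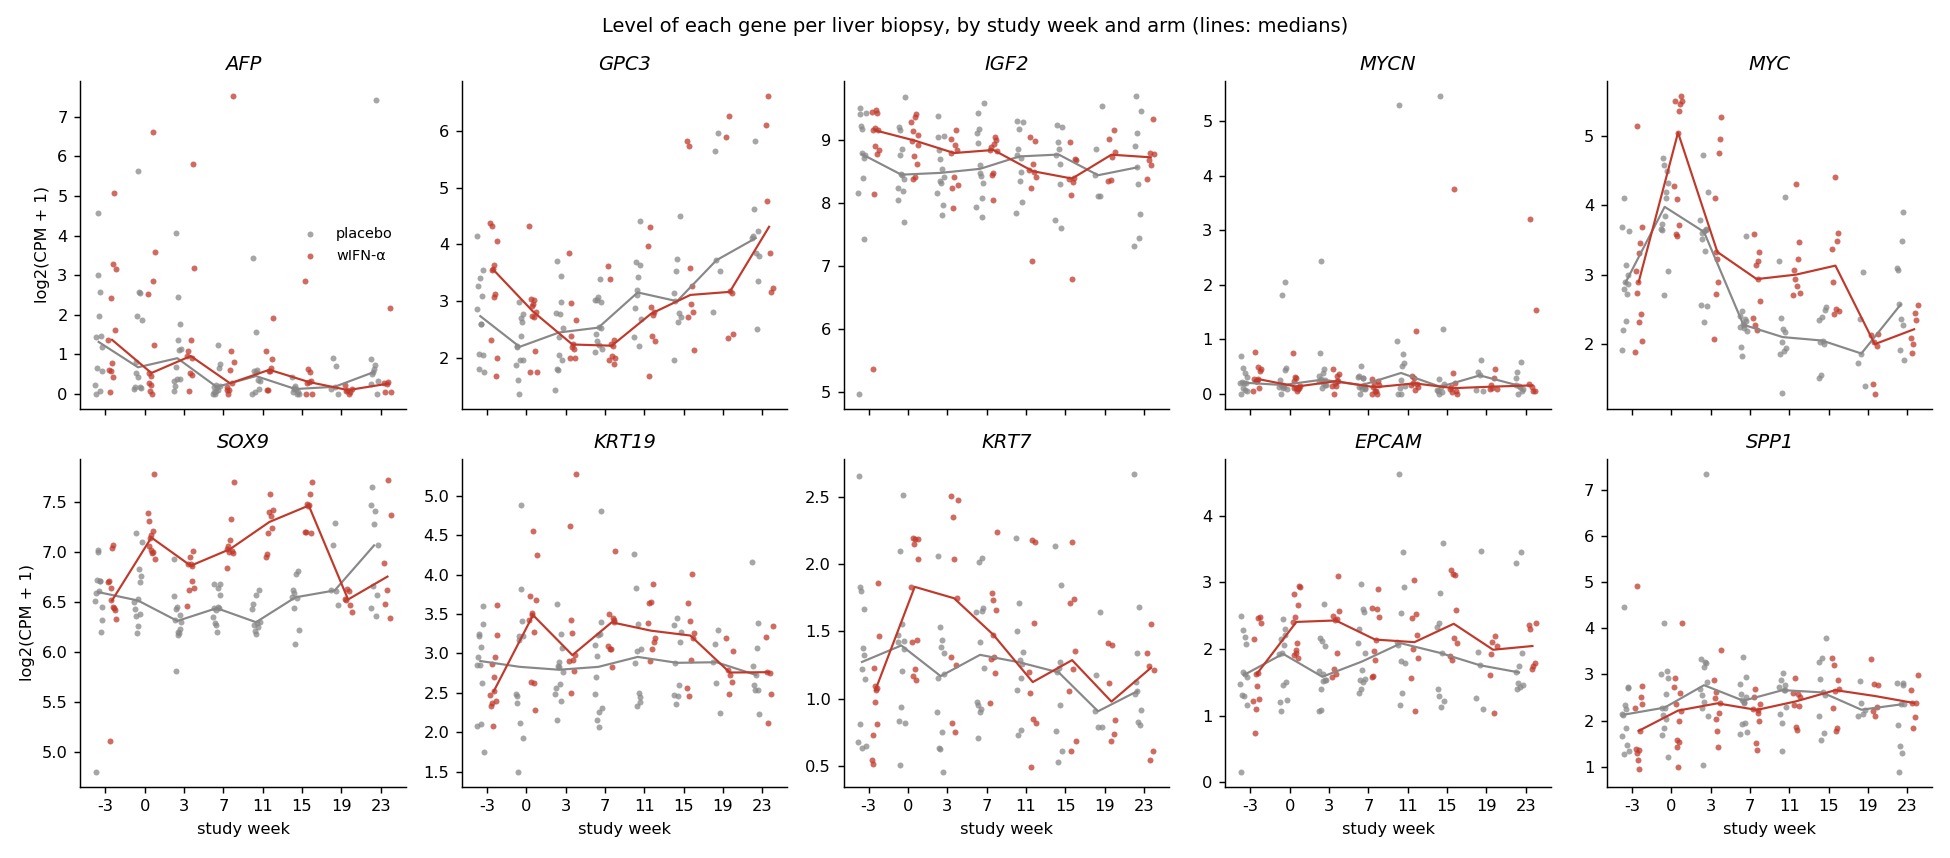
Level of each of the 10 genes in each of the 149 biopsies, as log2(CPM + 1) against study week. Grey points are placebo and red points wIFN-α animals, and lines join the medians. SOX9 is higher in the wIFN-α arm in the treatment weeks, GPC3 is highest at the end of the study in both arms, and MYCN and AFP lie near 0 in most biopsies and far above in a few.

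Before treatment, the genes differed widely in level. Compared per kilobase of transcript over the 23 biopsies of week -3, IGF2 had the highest median level, 67.5 CPM per kb with quartiles of 53.6 and 90.3. SOX9 followed at 24.2 CPM per kb (quartiles 21.7 and 26.4), so the quartile ranges of these 2 genes did not overlap. KRT19, GPC3, MYC and SPP1 had medians of 2.79, 2.75, 2.14 and 1.46 CPM per kb, and their quartile ranges overlapped from each to the next. EPCAM at 0.831, KRT7 at 0.666 and AFP at 0.484 CPM per kb also had quartile ranges that overlapped. MYCN was lowest at 0.0682 CPM per kb. No gene differed between the arms at week -3 by the edgeR quasi-likelihood test, in which 0% of all 14963 genes tested were called (130 genes had an unadjusted p under 0.05, and DESeq2 called 0). Called here means an adjusted p under 0.05 with more than a 1.5-fold difference in either direction.

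The arms were then compared at each week. Called genes among the 10 were all higher in the wIFN-α arm. They were MYC and EPCAM at week 0, KRT19 at week 3, MYC and SOX9 at week 7, SOX9 at week 11, and MYC and SOX9 at week 15. These are 2 of 9 genes tested at week 0, where 18.5% of all genes were called, 1 of 9 at week 3 (10.8% of all genes), 2 of 8 at week 7 (21.6%), 1 of 9 at week 11 (20.5%) and 2 of 8 at week 15 (22.3%). The shares among the 10 genes lay near those of all genes. The median log2 fold change of the members tested was 0.39 at week 15, against -0.01 over all genes tested. None was called at weeks 19 and 23, where edgeR called 0% of all genes in the fits of these weeks (1859 and 2416 genes had an unadjusted p under 0.05) and DESeq2 called 91 and 41 genes. A fit of all weeks with edgeR called 0 and 243 genes at weeks 19 and 23. None of the 10 genes was among any of these calls. MYCN was under the filter on low counts at all 8 weeks and AFP at weeks 7, 15 and 19.

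**Figure D2:**
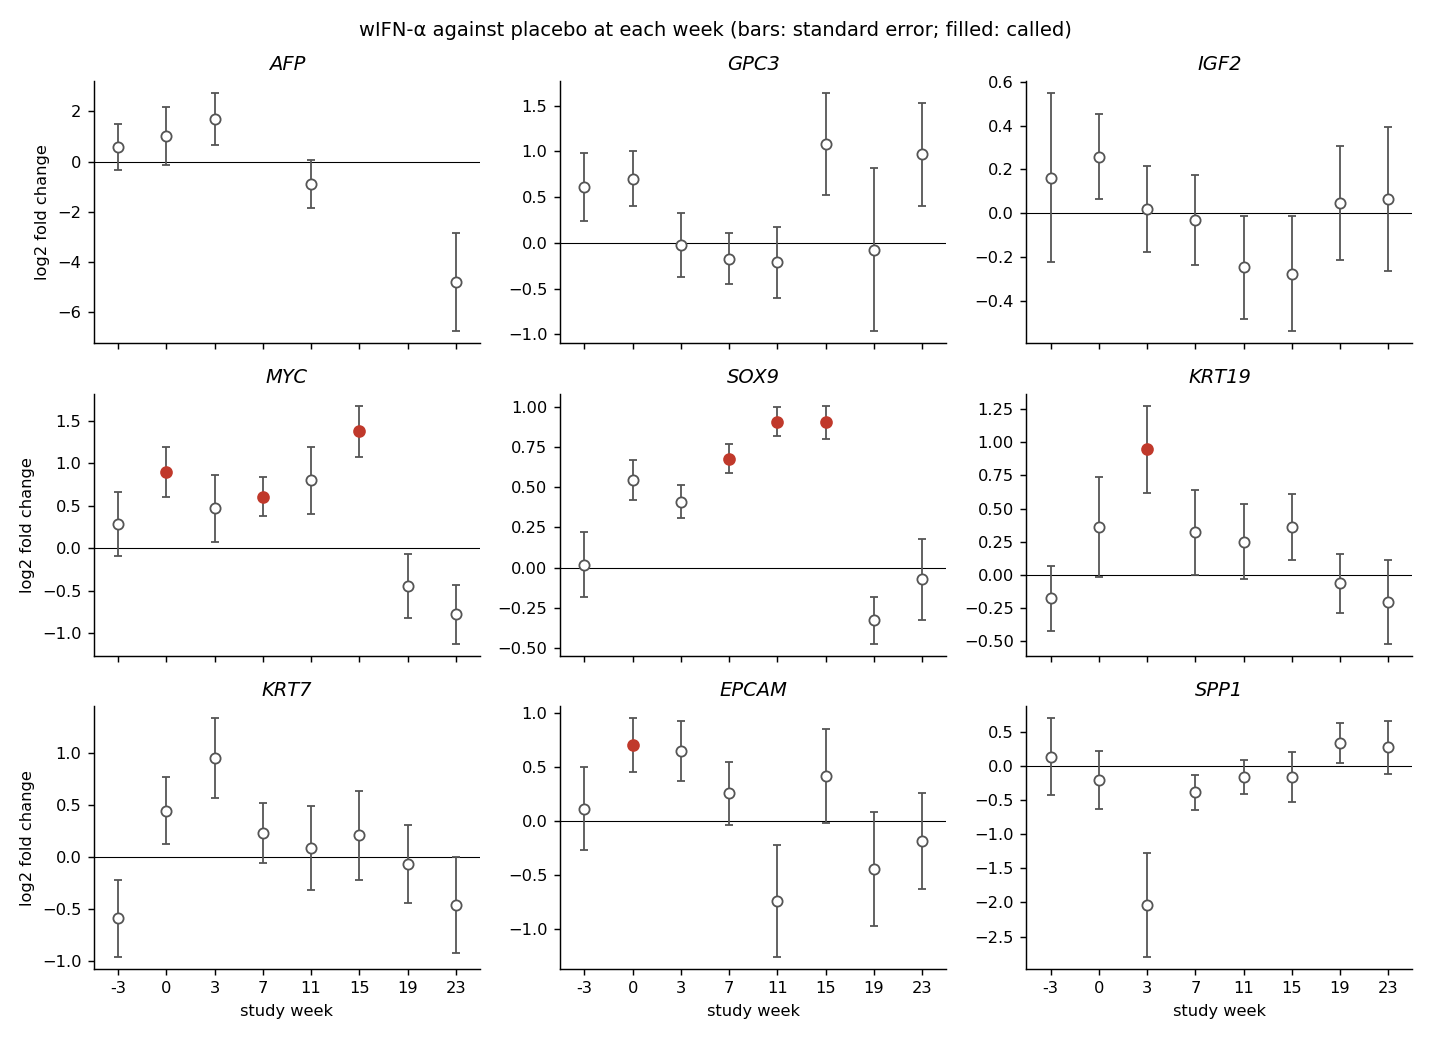
Log2 fold change of wIFN-α against placebo for 9 genes by study week (MYCN was under the filter), each point with its standard error. Filled red points are called. SOX9 is at 0.41 at week 3, 0.90 at week 15 and -0.33 at week 19. The vertical axes differ between panels.

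SOX9, a transcription factor of bile duct and progenitor cells that hepatocytes can also express after injury, gave the most regular difference between the arms. At week -3, SOX9 levels in placebo animals ranged from 26.9 to 128.7 CPM with a median of 95.8, and in wIFN-α animals from 33.5 to 133.7 CPM with a median of 90.4. The lowest value in each arm came from a muscle-rich biopsy. At week 0, 6 hours after the first dose, the range was 71.8 to 144.9 CPM (median 90.4) with placebo and 120.8 to 218.7 CPM (median 140.4) with wIFN-α. The ranges overlapped, and 11 of 11 treated animals lay above the placebo median. At week 3 the placebo range was 54.9 to 121.1 CPM (median 78.3) and the wIFN-α range 86.9 to 127.8 CPM (median 115.3).

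From week 7 the SOX9 levels of the arms no longer overlapped. At week 7 the placebo biopsies held 72.4 to 101.7 CPM (median 85.7) and the wIFN-α biopsies 113.8 to 207.1 CPM (median 129.5). At week 11 these ranges were 71.6 to 97.3 CPM (median 77.6) and 122.5 to 189.8 CPM (median 156.7). At week 15 they were 66.7 to 111.3 CPM (median 92.4) and 144.7 to 206.1 CPM (median 175.5). All 9, 8 and 8 treated animals lay above the highest placebo animal at weeks 7, 11 and 15. As log2 fold changes, SOX9 differed by 0.55 (SE 0.12, adjusted p = 0.00109) at week 0 and 0.41 (SE 0.10, adjusted p = 0.00701) at week 3, both under the fold threshold. It was 0.68 (SE 0.09, adjusted p = 2.37e-06) at week 7, 0.91 (SE 0.09, adjusted p = 2.13e-07) at week 11 and 0.90 (SE 0.10, adjusted p = 1.51e-06) at week 15.

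After treatment the difference in SOX9 did not pass the test. At week 19 the 5 placebo animals M1005, F1019, F1016, M1008 and M1011 had 155.4, 133.1, 97.0, 96.8 and 87.5 CPM, and the 6 wIFN-α animals 83.2 to 98.1 CPM (median 91.1). The arms then differed by a log2 fold change of -0.33 (SE 0.15, adjusted p = 0.392). At week 23 the range was 81.3 to 200.3 CPM in placebo and 80.0 to 209.5 CPM in wIFN-α animals, wider than in earlier weeks in both arms. Each treated animal had the low dose before the high dose, so dose and time on treatment cannot be told apart. With this limit, the doses were compared as the log2 fold change at week 15 less the average of those at weeks 0 and 3. This was 0.37 for SOX9 (SE 0.15), which did not pass the test over all genes (adjusted p = 0.173), where 2.69% of genes were called. With the animal as a replicate block it was 0.38 with an adjusted p of 0.0478. In the same animals, SOX9 rose from week -3 to week 15 in 8 of 8 wIFN-α animals (log2 change 0.98, SE 0.25, adjusted p = 0.0047, 25.2% of genes called) and was higher in 4 of 9 placebo animals (log2 change 0.04, adjusted p = 0.936). The difference between these changes was 0.93 (SE 0.34, adjusted p = 0.0818), where 13.4% of genes were called. Without the animals that gave a muscle-rich biopsy it was 0.94 with an adjusted p of 0.000635.

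KRT19 and KRT7, keratins of the bile duct epithelium, were not called at week 15. In that week, KRT19 levels ranged from 4.15 to 9.93 CPM (median 6.37) in placebo and from 4.50 to 15.03 CPM (median 8.36) in wIFN-α animals, and KRT7 levels from 0.441 to 3.38 CPM (median 1.29) and from 0.530 to 3.47 CPM (median 1.44). The arms overlapped for both keratins, with log2 fold changes of 0.36 (SE 0.25, adjusted p = 0.258) and 0.21 (SE 0.43, adjusted p = 0.730). KRT19 was called at week 3, with 3.46 to 11.4 CPM (median 5.93) in placebo and 4.67 to 37.7 CPM (median 6.88) in wIFN-α animals. Its log2 fold change there was 0.95 (SE 0.33, adjusted p = 0.0472). The 2 treated animals above all placebo animals were M1012 at 37.7 and F1014 at 23.4 CPM, and without M1012 the log2 fold change was 0.50 (adjusted p = 0.174). The call was lost without any 1 of 14 of the 21 animals, and without the muscle-rich biopsies the adjusted p was 0.0771. With the animal as a replicate block in a fit of all weeks the log2 fold change was 0.57 (adjusted p = 0.169). The biopsy of M1012 also had the highest summed level of 8 stellate cell genes in its group, 2396 CPM against a group median of 608 CPM, and their part in the KRT19 level was not tested. KRT7 at week 3 reached 0.371 to 3.17 CPM (median 1.25) in placebo and 0.680 to 4.69 CPM (median 2.35) in wIFN-α animals, with a log2 fold change of 0.95 (SE 0.38, adjusted p = 0.0853).

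EPCAM, an adhesion protein of bile duct and progenitor cells, was called at week 0 alone. Its levels there were 1.11 to 4.46 CPM (median 2.81) in placebo and 2.63 to 6.72 CPM (median 4.30) in wIFN-α animals, and 5 of 11 treated animals lay above all placebo animals. The log2 fold change was 0.70 (SE 0.25, adjusted p = 0.0293). Without wIFN-α animal M1007 it was 0.62 (adjusted p = 0.0600), and the call was also lost without M1012 or F1014, and in a fit of all weeks (adjusted p = 0.123, and 0.0692 with the replicate block). At week 15 the ranges of 1.18 to 11.1 CPM and 2.58 to 8.11 CPM overlapped, and the highest value was that of placebo animal M1008. In M1008, EPCAM was at 3.55 CPM at week -3 and at 11.1, 10.1 and 10.01 CPM at weeks 15, 19 and 23. The log2 fold change at week 15 was 0.41 (SE 0.43, adjusted p = 0.467) with M1008 and 0.81 (adjusted p = 0.0946) without M1008. Within animals, EPCAM rose from week -3 to week 15 in the wIFN-α arm, by a log2 change of 1.18 (SE 0.37, adjusted p = 0.0165), with 7 of 8 animals higher. Without the replicate block this was 1.06 (adjusted p = 0.0777). Placebo animals changed by 0.72 (SE 0.35, adjusted p = 0.198), and the difference of 0.46 between the arms did not pass the test (adjusted p = 0.648).

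A wider list of 20 bile duct and progenitor genes, of which 19 were in the files and tested, had 2 genes called at week 15, both higher, a smaller share than that of all genes (22.3%). The mucin MUC1 was among them (log2 fold change 4.84, SE 0.79, adjusted p = 9.14e-05). Its median over all placebo biopsies compared was 0.107 CPM, so this fold change starts from a level near 0. KRT18, a keratin that hepatocytes share, was at -0.57 (adjusted p = 0.00137), a log2 fold change under the fold threshold. The median log2 fold change of the list at week 15 was 0.24. The summed level of these genes ranged from 589 to 753 CPM in placebo and from 528 to 719 CPM in wIFN-α animals at week 15. Most of this sum lay on the hepatocyte keratins KRT8 and KRT18, with placebo medians of 279.6 and 215 CPM, so the sum mainly follows these 2 genes.

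MYC, a transcription factor that drives growth and cell division, was called at weeks 0, 7 and 15. At week -3 its level was 2.77 to 16.1 CPM (median 6.36) in placebo and 2.70 to 34.4 CPM (median 6.44) in wIFN-α animals, the highest being the muscle-rich biopsy of F1018. At week 0 it was 5.56 to 24.6 CPM (median 14.8) in placebo and 10.8 to 46.6 CPM (median 32) in wIFN-α animals. Levels at week 0 were thus above those of week -3 in both arms, and 6 of 11 treated animals lay above all placebo animals. The log2 fold change at week 0 was 0.89 (SE 0.29, adjusted p = 0.0197). At week 3 the medians were 11.3 CPM with placebo and 9.03 CPM with wIFN-α, and the log2 fold change of 0.47 did not pass the test (SE 0.40, adjusted p = 0.425).

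In the high dose weeks the levels of MYC were lower in both arms than at week 0. At week 7 they were 2.56 to 10.7 CPM (median 3.85) in placebo and 3.62 to 11 CPM (median 6.65) in wIFN-α animals, with a log2 fold change of 0.61 (SE 0.23, adjusted p = 0.0356). This call was lost without any 1 of 13 of the 21 animals, with an adjusted p of up to 0.0998 (without F1014). It was also lost with M1004 included, without the 2 animals with a euthanasia biopsy, with limma-voom (by the fold threshold) and in a fit of all weeks (adjusted p = 0.178, and 0.265 with the replicate block). At week 11 the medians were 3.30 and 7.01 CPM and the log2 fold change was 0.80 (SE 0.39, adjusted p = 0.120). In a fit of all weeks with the replicate block it was 1.05 and called (adjusted p = 0.0399). At week 15 the placebo animals held 1.85 to 4.81 CPM (median 3.15) and the wIFN-α animals 4.40 to 20.1 CPM (median 7.88), and 5 of 8 treated animals lay above all placebo animals. The log2 fold change of 1.38 (SE 0.30, adjusted p = 0.00139) kept its call with each of the 17 animals left out. At week 19 the medians were 2.64 CPM in the 5 placebo and 3.00 CPM in the 6 wIFN-α animals. From week 0 to week 15, MYC was lower in 9 of 9 placebo and 7 of 8 wIFN-α animals. From week -3 to week 15 the log2 change within wIFN-α animals was -0.08 (SE 0.45, adjusted p = 0.903), with 4 of 8 higher. Within placebo animals it was -1.01 (SE 0.41, adjusted p = 0.119), with 8 of 9 lower. The difference between these changes was 0.93 (SE 0.61, adjusted p = 0.395) and was not called. These pairs include the muscle-rich biopsies of F1016 and F1018 at week -3. Between the doses, as defined for SOX9, the difference for MYC was 0.63 (SE 0.45, adjusted p = 0.531).

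The levels of 10 proliferation genes moved with MYC at some weeks and against it at others. At week 0, 8 of 10 were called lower in the wIFN-α arm, and their summed level was 22.3 to 93.2 CPM (median 57.2) in placebo and 12.0 to 60.1 CPM (median 31.7) in wIFN-α animals. At weeks 11 and 15 all 10 were called higher, with a summed level at week 15 of 17.7 to 51.2 CPM (median 26.6) against 23.2 to 212.3 CPM (median 96.3). The part of dividing cells in the MYC levels was not tested. Of all genes, 18.5%, 20.5% and 22.3% were called at weeks 0, 11 and 15. Among 13 genes of the MYC network and its targets, 3 were called at week 15, all higher, a share near that of all genes. The median log2 fold change of these 13 genes was -0.02. MAX, the binding partner of MYC, was higher by 0.85 (SE 0.07, adjusted p = 1.18e-08) and MXD1, a repressor that competes for MAX, by 1.46 (SE 0.08, adjusted p = 3.44e-11).

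MYCN is the N-myc gene, and reads of the functional N-myc2 copy that woodchucks carry could not be told apart under this symbol. MYCN was near 0 in most liver biopsies. Its median over the 149 biopsies was 0.142 CPM, 11 biopsies had no read, which allows a level of up to 0.129 CPM (3 reads) for counting error alone, and only 10 were above 1 CPM. Single biopsies stood far above these. Placebo animal F1021 had 43.0 CPM (2186 reads) at week 15, where the other 8 placebo animals reached at most 1.28 CPM. Placebo animal F1017 had 38.3 CPM (1318 reads) at week 11, where the other 9 reached at most 0.945 CPM. wIFN-α animal F1022 had 12.6 CPM (398 reads) at week 15, and wIFN-α animal F1014 had 8.22 CPM (337 reads, in 2 runs of 8.14 and 9.44 CPM before scaling) at week 23. Other biopsies of F1017, F1021 and F1022 were lower: F1017 had 0.215 CPM at week 15, F1021 had no read at week 23 and at most 2.52 CPM in any other biopsy, and F1022 had at most 0.231 CPM otherwise.

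**Figure D3:**
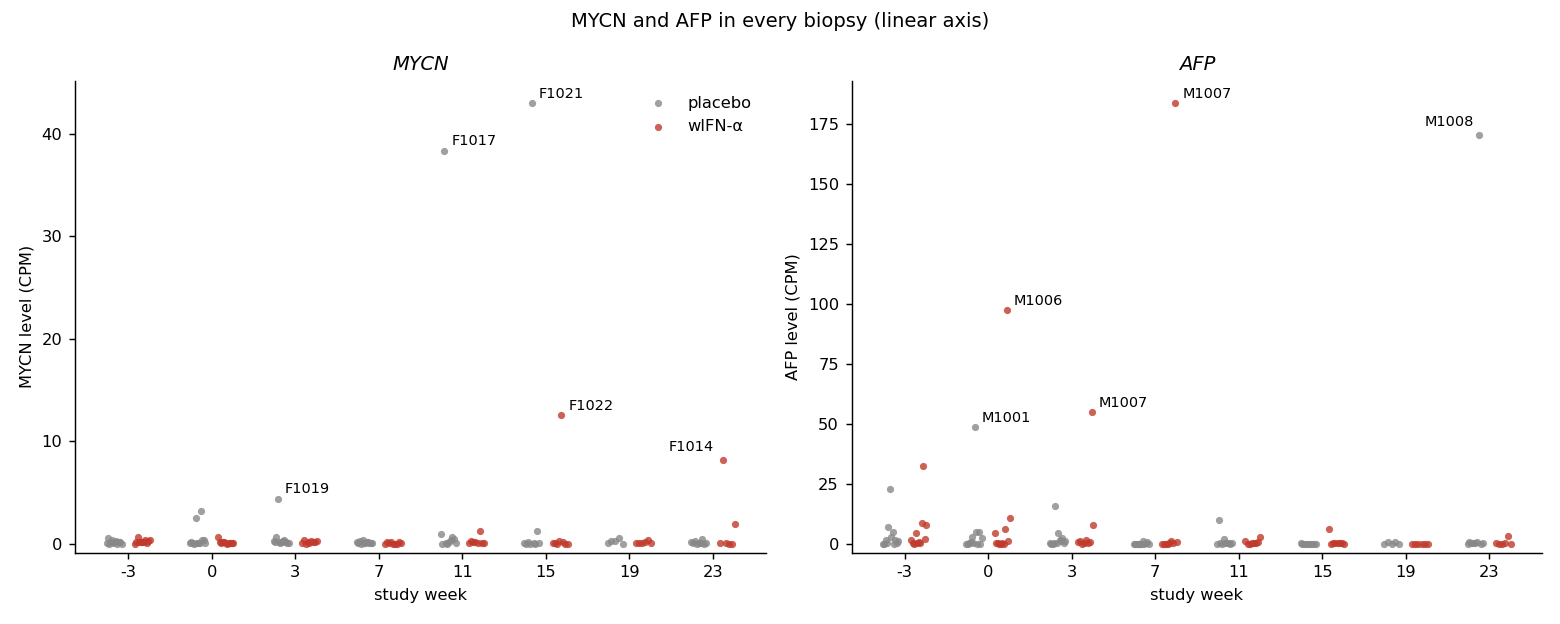
Level of MYCN (left) and AFP (right) in every biopsy, in CPM on a linear axis, by study week. Grey points are placebo and red points wIFN-α animals, with names at points above 4 CPM of MYCN and above 40 CPM of AFP. Most biopsies lie at the bottom, and the highest MYCN values are 43.0 CPM in F1021 and 38.3 CPM in F1017.

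Other genes in the biopsies with high MYCN were compared with their groups. In F1017 at week 11, EPCAM was at 23.8 CPM, the highest level of the 149 biopsies. IGF2 there was at 634.4 CPM, against a median of 421.7 CPM in the other placebo animals. This level was usual for F1017, which had 589 to 730.3 CPM of IGF2 at weeks -3, 0, 3, 7 and 15. The summed level of the proliferation genes was 85.1 CPM in F1017, where the other placebo animals had a median of 33.2 and a highest value of 51.0 CPM, and the summed level of 8 stellate cell genes was 3385 CPM, the highest of the group, whose median was 956 CPM. In F1021 at week 15 the proliferation sum was 51.2 CPM, above the highest of the other animals (33.7 CPM), and EPCAM was at 6.13 CPM. The proliferation sums of the other 2 biopsies lay below the medians of their groups, at 83.8 against 108.8 CPM in F1022 at week 15 and at 20.3 against 22.3 CPM in F1014 at week 23. EPCAM was at 3.50 CPM in F1022 and at 3.93 CPM in F1014. AFP was at 0.494 CPM in F1017 and at 0.157 CPM in F1021, and it was at 0.221 CPM in F1022 and 0.0244 CPM in F1014. No difference in MYCN between the arms passed the permutation test at any of the 8 weeks. Its p, exact where an arm had fewer than 10 animals, ranged from 0.148 to 0.705 on log2(CPM + 1), and the lowest adjusted p over 11 such comparisons of MYCN and AFP was 0.462. Without the filter on low counts, edgeR called MYCN lower in the wIFN-α arm at week 0 (log2 fold change -2.02, adjusted p = 0.0472) and at week 11 (-3.82, adjusted p = 0.0399), the week of the high biopsy of F1017. DESeq2 gave -1.13 (adjusted p = 0.213) and -1.02 (adjusted p = 0.230) at these weeks. F1017 and M1010 are the placebo animals with a biopsy labelled as taken at euthanasia, at week 17, and the study's notes give symptoms of terminal HCC for both. MYCN in these last biopsies was at 0.183 CPM in F1017 and 0.0725 CPM in M1010.

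AFP was also low in most biopsies and high in a few. Its median was 0.410 CPM, 13 biopsies had no read, which allows up to 0.198 CPM, and 9 were above 10 CPM. At week -3 it ranged from 0 to 22.7 CPM (median 1.49) in placebo and from 0.0392 to 32.7 CPM (median 1.58) in wIFN-α animals. wIFN-α animal M1006 had 32.7 CPM at week -3 and 97.4 CPM at week 0. wIFN-α animal M1007 had 2.05, 1.37, 54.9 and 183.6 CPM at weeks -3, 0, 3 and 7. Placebo animal M1008 had at most 1.17 CPM at weeks -3 to 19 and 170.2 CPM at week 23, with 212 and 211 CPM in the 2 runs before scaling. Placebo animal M1001 had 48.7 CPM at week 0 and 2.94 and 4.45 CPM at weeks -3 and 3. High AFP was thus found in both arms, before and during treatment. The hepatocyte gene sums of the biopsies of M1007 at week 7 and M1008 at week 23 were 124112 and 113981 CPM, against group medians of 108408 and 107581 CPM. Of the other compared biopsies above 10 CPM of AFP, M1001 at week 0 also lay above its group median, and M1012 at week 0 lay at it. Those of M1006 at weeks -3 and 0, M1007 at week 3, F1024 at week -3 and F1021 at week 3 lay below. M1007 at week 3 had 92301 CPM, against a group median of 103742 CPM.

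At week 15 AFP was low in both arms. At that week the placebo animals had 0 to 0.336 CPM (median 0.0882) and the wIFN-α animals 0 to 6.16 CPM (median 0.231). Within placebo animals AFP fell from week -3 to week 15 by 3.79 on the log2 scale (SE 1.19, adjusted p = 0.0428, 7.31% of genes called), with 7 of 9 animals lower and AFP the 1 of 10 members called. In wIFN-α animals the change was -1.89 (SE 1.17, adjusted p = 0.220), and the difference between the arms was 1.90 (SE 1.64, adjusted p = 0.547). From week -3 to week 23 AFP was not called in placebo animals (log2 change -1.36, SE 1.34, adjusted p = 0.539), a comparison that includes M1008 at 170.2 CPM. From week 15 to week 23 AFP was higher in 7 of 8 placebo animals, and the placebo median at week 23 was 0.467 CPM. At week 15 the permutation test between the arms gave an exact p of 0.0485 and an adjusted p of 0.462. Without the filter on low counts, edgeR called AFP higher in the wIFN-α arm at weeks 7 and 15 (adjusted p = 0.00122 and 0.016), and DESeq2 at neither (0.807 and 0.222).

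GPC3, an oncofetal proteoglycan of the cell surface, was highest at the end of the study in both arms. In placebo animals the median was 5.67 CPM at week -3, 3.56 at week 0, 4.45 at week 3, 4.77 at week 7, 7.88 at week 11, 6.98 at week 15, 12.2 at week 19 and 16.3 at week 23. In wIFN-α animals the medians were 10.7, 6.02, 3.70, 3.63, 5.84, 7.67, 7.94 and 19.9 CPM. GPC3 was higher at week 23 than at week -3 in 8 of 9 placebo and 6 of 6 wIFN-α animals. In placebo animals this within-animal log2 change was 1.65 (SE 0.43, unadjusted p = 0.0026), and with an adjusted p of 0.0637 GPC3 was not called, where 1.65% of genes were called. Without the placebo animal that gave a muscle-rich biopsy at week -3, F1016, the change was 1.88 and called (adjusted p = 0.0195). This comparison was chosen after the levels by week had been seen.

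**Figure D4:**
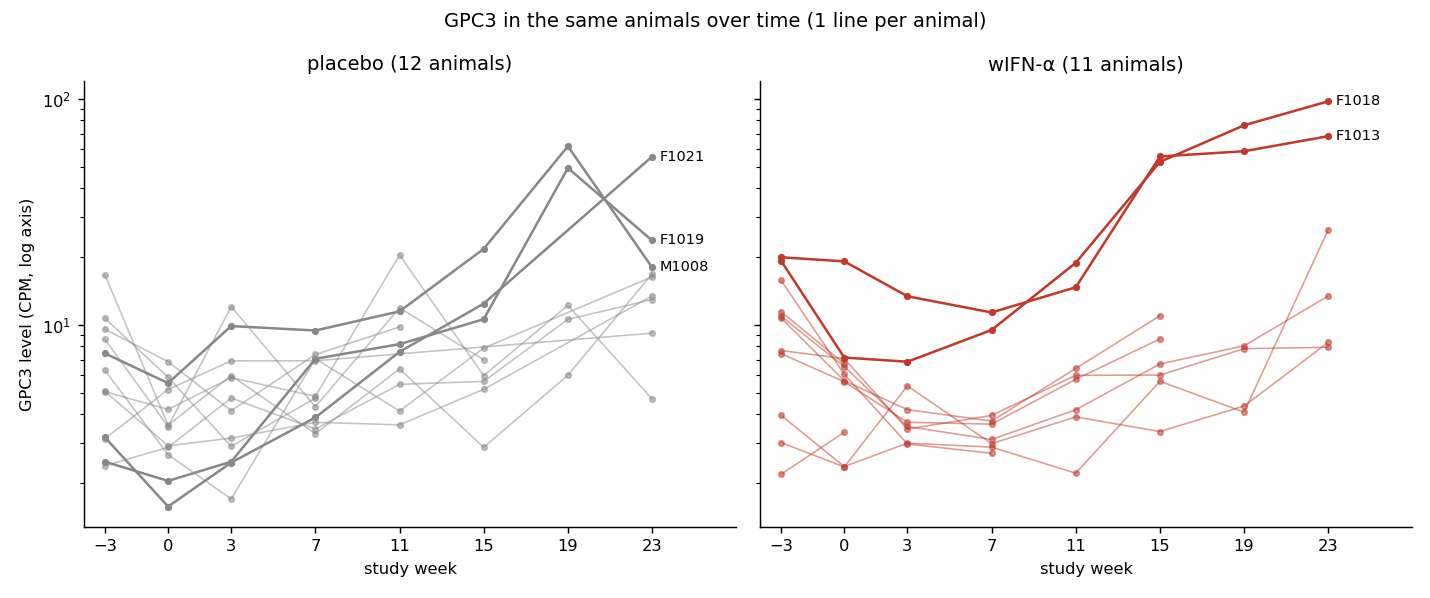
GPC3 level in CPM (log axis) against study week, with 1 line per animal, for 12 placebo (left) and 11 wIFN-α animals (right). Names mark the animals that passed 40 CPM. At week 23, GPC3 stands at 97.3 CPM in wIFN-α animal F1018 and 55.3 CPM in placebo animal F1021.

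A few animals had the highest GPC3 levels. wIFN-α animal F1018 had 18.8, 52.5, 76.2 and 97.3 CPM at weeks 11, 15, 19 and 23, and wIFN-α animal F1013 had 14.6, 55.4, 58.5 and 68.2 CPM. Of the placebo animals, M1008 had 61.5 CPM and F1019 had 49.3 CPM at week 19, and F1021 reached 55.3 CPM at week 23 from 3.17 CPM at week -3. At week -3, F1013 and F1018 had 19.9 and 19.1 CPM, the highest of all 23 animals. The biopsy of F1018 was muscle-rich, and this animal had 7.145 and 6.847 CPM at weeks 0 and 3. The muscle-rich biopsy of placebo animal F1016 at week -3 had 16.61 CPM, and this animal had 3.589 CPM at week 0. F1013, whose biopsy was not muscle-rich, had 13.34 CPM at week 3. At week 15 the log2 fold change of 1.08 (SE 0.56, adjusted p = 0.129) between the arms did not pass the test, and it did not at any other week. Of the 9 biopsies above 40 CPM of GPC3, 8 had AFP at 0.0794 to 0.890 CPM. The biopsy of F1013 at week 15 had 6.16 CPM of AFP, the highest AFP level of its week.

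IGF2 was steady in comparison. Its median over the 149 biopsies was 422.7 CPM, with a range of 30.4 to 831.9 CPM, the lowest being the muscle-rich biopsy of F1016. In placebo animals 51.2% of the variance of the log2 level lay between animals, and for EPCAM 51.5%, where it was at most 19.9% for the other 8 genes. Animal medians of IGF2 ranged from 218 CPM in M1009 to 698 CPM in M1011. IGF2 differed between the arms at no week, with log2 fold changes from -0.28 (SE 0.26, adjusted p = 0.425) at week 15 to 0.26 (SE 0.20, adjusted p = 0.332) at week 0. From week 0 to week 15, IGF2 was lower in 8 of 8 wIFN-α and 5 of 9 placebo animals, and the difference between the doses was -0.47 (SE 0.29, adjusted p = 0.441). wIFN-α animal F1020 had 332.4 CPM at week 0 and 134.2 and 109.9 CPM at weeks 11 and 15, the lowest of the treated biopsies compared from week 0 on. Within wIFN-α animals the log2 change from week -3 to week 15 was -0.39 (SE 0.46, adjusted p = 0.538), and -0.73 (adjusted p = 0.000565) without F1018, whose biopsy at week -3 was muscle-rich. IGF2 was lower at week 15 than at week -3 in 7 of 8 wIFN-α and 8 of 9 placebo animals. With all pairs, the difference between the changes of the arms was -0.32 (SE 0.63, adjusted p = 0.827). Without the animals that gave a muscle-rich biopsy, this difference was not called either. The read-through gene INS-IGF2 shares sequence with IGF2 and had a median of 126 CPM. Its antisense gene IGF2-AS had at most 0.206 CPM, and the libraries did not keep strand, so reads of these genes cannot be told apart.

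Other fetal and hepatoma genes were compared at week 15. Of 18 other oncofetal and hepatoma genes, 13 were in the files and 11 tested at week 15, of which 3 were called, all higher, beside the 22.3% of all genes called. The RNA-binding protein IGF2BP2, which binds IGF2 mRNA, was higher by 1.91 (SE 0.16, adjusted p = 2.01e-08), the growth factor MDK by 2.12 (SE 0.30, adjusted p = 2.37e-05) and the imprinted gene PEG10 by 2.12 (SE 0.34, adjusted p = 7.17e-05), all as log2 fold changes. The median of the list was -0.23. These 3 genes were at log2 fold changes of -0.44 to 0.06 at week 19 and none was called. Of 12 genes of the IGF axis, the insulin receptor substrate IRS2 alone was called at week 15 (0.62, SE 0.14, adjusted p = 0.0014), and the median was 0.19.

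SPP1 was not called at any week with all of the compared animals in the fit of that week. Its median over the 149 biopsies was 4.14 CPM, and at week 15 it ranged from 1.97 to 12.9 CPM (median 5.11) in placebo and from 2.43 to 9.32 CPM (median 5.32) in wIFN-α animals. The log2 fold change at week 15 was -0.16 (SE 0.37, adjusted p = 0.756). At week 3 the log2 fold change of -2.04 (SE 0.76, adjusted p = 0.0628) rested on placebo animal M1008 at 162.3 CPM (7744 reads), where the placebo median was 5.82 CPM. Without M1008 it was -0.35 (adjusted p = 0.485), and DESeq2 gave -0.35 (adjusted p = 0.462). SPP1 was called lower at week 3 with M1004 included (adjusted p = 0.0386), without the muscle-rich biopsies (-2.30, adjusted p = 0.033), without F1021 (adjusted p = 0.0428) and in a fit of all weeks (-2.06, adjusted p = 0.000837). With the replicate block that fit gave -1.01 (adjusted p = 0.0844). All of these include M1008. The summed level of the stellate cell genes in that biopsy was 7913 CPM, against a placebo median of 3327 CPM and a highest value of 13884 CPM at week 3, and its part in the SPP1 level was not tested. The summed level of 10 macrophage genes was 337 to 580 CPM in placebo and 467 to 912 CPM in wIFN-α animals at week 15, with 1 of 10 called, the scavenger receptor CD163, which was lower (log2 fold change -1.94, SE 0.77, adjusted p = 0.0498). Of 8 osteopontin receptors and partners, 3 were called at week 15, where 22.3% of all genes were called. The integrins ITGA4 (0.91, SE 0.30, adjusted p = 0.0224) and ITGA9 (0.65, SE 0.20, adjusted p = 0.0145) were higher and ITGB5 (-0.68, SE 0.11, adjusted p = 5.58e-05) was lower, as log2 fold changes.

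Markers of other cell types were compared beside these genes at week 15, where 22.3% of all genes were called. Of 12 hepatocyte genes 1 was called, FGB (fibrinogen β chain), which was higher (log2 fold change 0.85, SE 0.29, adjusted p = 0.025), and the median was 0.07. Of 8 stellate cell genes 3 were called, all lower, namely the collagens COL1A1 (-2.71, SE 0.96, adjusted p = 0.0309), COL1A2 (-2.49, SE 0.89, adjusted p = 0.0314) and COL3A1 (-1.12, SE 0.44, adjusted p = 0.0468). Their summed level was 368 to 5102 CPM (median 623) in placebo and 429 to 678 CPM (median 582) in wIFN-α animals. The highest sum of any week, 21243 CPM, came from the muscle-rich biopsy of F1018 at week -3. Muscle genes held 1.62% and 1.45% of reads in M1012 and M1008 at week 3 and 0.643% in F1017 at week 11. The median of biopsies that were not muscle-rich was 0.0498%. None of the 20 muscle genes was called at any week. The median log2 fold change of those tested was 1.23 at week 0 and -1.93 at week 3, and from -0.70 to 0.33 at the other weeks. The lack of calls therefore does not show that the arms held equal muscle at weeks 0 and 3. All 7 interferon-stimulated genes were called higher in the 5 treatment weeks, and none at weeks 19 and 23. The part of other cell types in the levels of the 10 genes was not tested.

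The 10 genes were compared with each other across animals before treatment, over the 21 biopsies of week -3 that were not muscle-rich. Of 45 pairs, 1 passed the adjusted threshold in the permutation test: KRT19 and KRT7 had a Pearson's r of 0.807 (adjusted p = 0.00045, from the smallest p these permutations can give) and a Spearman's rho of 0.805 (adjusted p = 0.00225), and r was 0.755 without the 2 animals farthest from the median. SOX9 did not rank with the other bile duct genes, with a rho of -0.208 to KRT19, -0.0221 to KRT7 and -0.0468 to EPCAM. GPC3 and MYC had a rho of -0.508 (adjusted p = 0.190), and AFP and GPC3 one of -0.200 (adjusted p = 0.665).

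**Figure D5:**
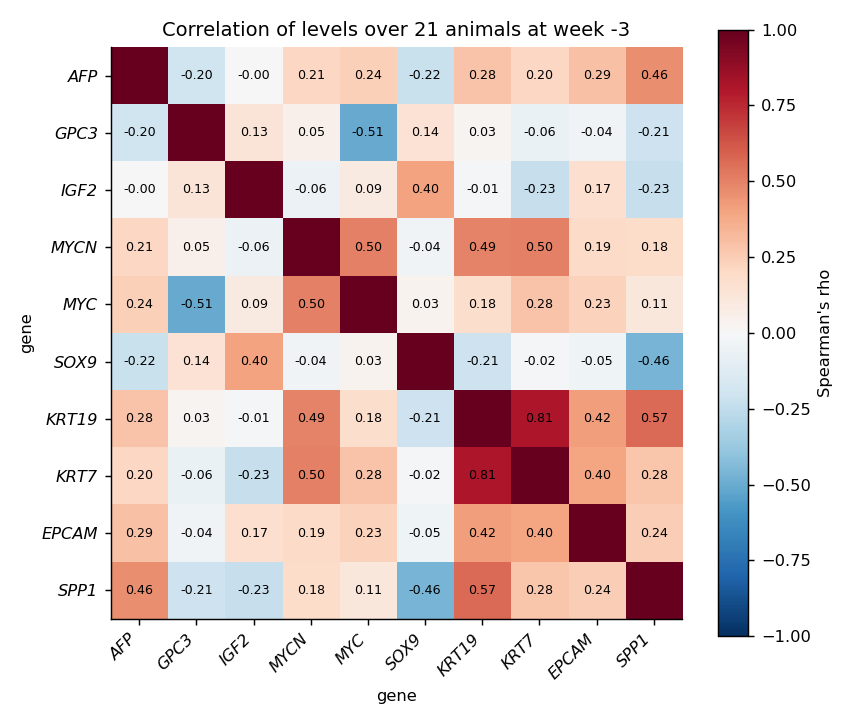
Spearman's rho between the log2 levels of each pair of the 10 genes over the 21 biopsies of week -3 that were not muscle-rich. Red is positive and blue negative, and the value stands in each cell. The pair KRT19 and KRT7 at 0.81 is the only one that passed the adjusted threshold.

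The genes with the highest rank correlation to each member over these 21 biopsies, among 13756 genes, are given as a description. For IGF2 they were INS-IGF2 (rho 0.942), which shares its sequence, DNASE2B (0.805) and RNF135 (0.797). For SOX9 they were PUS10 (0.851) and PTGR2 (0.842), and for MYC they were TAF9 (0.855), EIF2D (0.825) and ENOPH1 (0.817). KRT19 was closest to KRT7 (0.805), PRSS8 (0.779) and HPGDS (0.739), and KRT7 to LRRN4 (0.825), KRT19 (0.805) and ALDH1A2 (0.775). EPCAM was closest to KCNE3 (0.849), EMID1 (0.838) and WFDC2 (0.830), and SPP1 to ADCY5 (0.817), CD300A (0.803) and KRT14 (0.792). For GPC3 they were AWAT1 (0.756), GSTM5 (0.739) and NCALD (0.739), and for AFP they were HPRT1 (0.727), ATG4A (0.721) and CHL1 (0.718).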

How the data were processed

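Per the labels and the methods of the study, poly(A) RNA of liver biopsies was made into unstranded libraries and sequenced as read pairs of 50 nucleotides. The authors mapped these with Bowtie2 to their woodchuck transcriptome assembly and counted reads per gene with SAMtools. The deposited values are expected counts per gene without normalization, of which 118 of 3368022 nonzero entries are fractions. The deposited RPKM values were used to derive gene lengths only. Genes are named by symbol, no coordinates are given, and near-identical copies may share reads.

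Counts of the 203 runs were added per biopsy (164 biopsies) and rounded, genes not listed in a run were set to 0, and the virus entry was left out. The comparisons used 149 biopsies. The 7 of wIFN-α animal M1004 and 8 taken at other weeks were left out. The study gave a lower viral load at baseline for M1004 and excluded this animal as probably clearing the infection naturally. Each of 7 sequencing lanes held both arms. Each animal gave 1 value per week.

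Each week was fitted with edgeR 4.0.16 in R 4.3.3 (TMM, its filter on low counts, quasi-likelihood test, Benjamini-Hochberg adjustment over all genes tested). Changes within animals used the animal as a block, since the labels give the animal, and deviations of samples of the same animal had a median correlation of 0.23 over 17 pairs (0.0332 over 179 pairs of other animals). Genes under the filter were compared by two-sided permutation tests of log2(CPM + 1), exact where an arm had fewer than 10 animals and otherwise with 100000 resamples. Only the edgeR comparison of the arms within a week was tested on simulated data. DESeq2 1.42.0 and limma 3.58.1 gave alternative fits. Levels and figures used Python 3.11.15, numpy 2.4.6, scipy 1.17.1, pandas 2.3.3 and matplotlib 3.10.9.

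The members, lists and tests were chosen with earlier results of these data known. The text names all 10 members, at most 4 genes of each other list by adjusted p at week 15, 3 genes most like each member with a mean of at least 1 CPM, and MX1. A few genes that this rule would name are not reported here. Genes named outside this rule, INS-IGF2 and IGF2-AS, share reads with a member.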

Additional observations from a re-analysis of the deposited data

Results flagged for a closer look

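In 100 groups of 4 to 10 biopsies (10 genes in 10 groups of an arm and week), the highest or lowest log2 level was tested for its gap to the rest. Chance alone sets about 1 in 20 such groups apart if log2 levels follow a normal distribution. AFP and MYCN lay near 0 in most biopsies and far above in a few, so this rate does not hold for them. AFP stood apart in 6: placebo animals F1016 at week 11 (9.80 CPM), F1015 at week 15 (0.336 CPM) and M1008 at week 23 (170.2 CPM), and wIFN-α animals M1007 at week 7 (183.6 CPM), F1013 at week 15 (6.16 CPM) and M1003 at week 23 (3.51 CPM). MYCN stood apart in 4: placebo animals F1017 at week 11 (38.3 CPM) and F1021 at week 15 (43.0 CPM), and wIFN-α animals M1002 at week 11 (1.23 CPM) and F1022 at week 15 (12.6 CPM). IGF2 was low in wIFN-α animal F1020 at weeks 11 (134.2 CPM) and 15 (109.9 CPM). KRT19 was high in wIFN-α animal M1012 at week 7 (18.6 CPM, the next at 10.4 CPM), and KRT7 in placebo animal F1015 at week 23 (5.36 CPM, the next at 2.21 CPM).

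Among the biopsies outside the comparisons, 4 levels were above the highest placebo biopsy of the comparisons. wIFN-α animal M1006 had 364.9 CPM of AFP (20086 reads) at week 2, after 32.7 CPM at week -3 and 97.4 CPM at week 0, where the highest placebo level was 170.2 CPM. The same biopsy had 39.7 CPM of MYC, against 25.4 CPM in the highest placebo biopsy. A biopsy of wIFN-α animal F1023 taken at death had 56.2 CPM of MYC. A biopsy of wIFN-α animal F1020 taken at death had 6.16 CPM of KRT7, against 5.36 CPM in the highest placebo biopsy, with IGF2 at 87.6 CPM and EPCAM at 10.3 CPM.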

How the results depend on the processing

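The count of the 10 genes called was recomputed under each alternative. A fold change above 2 gave 0 genes at weeks 0, 3, 7 and 11 and 1 (MYC) at week 15, where the lower threshold gave 2, 1, 2, 1 and 2. At week 0, 1 fit of all weeks gave 1. At week 3 the count was 0 without a filter on low counts, with limma-voom and with sex as a covariate, 2 without the 2 animals with a euthanasia biopsy and 3 in 1 fit of all weeks. With M1004 included or without muscle-rich biopsies it stayed at 1, but SPP1 (lower) was called in place of KRT19. At week 7 it was 1 with limma-voom, with M1004 included and without the 2 animals with a euthanasia biopsy, and in 1 fit of all weeks it was 2, with AFP called in place of MYC. At week 11 it was 2 without a filter, with limma-voom and in 1 fit of all weeks. With animals left out in turn the counts ranged from 1 to 3 at week 0, 0 to 2 at week 3, 1 to 3 at week 7, and stayed at 2 at week 15 and 0 at week 19. SOX9 kept its call at weeks 7, 11 and 15 under every alternative run except the fold change above 2, with log2 fold changes of 0.67 to 0.68, 0.89 to 0.91 and 0.87 to 0.91. MYC at week 15 kept its call under all 11 (1.21 to 1.395).

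With the animal as a replicate block in a fit of all weeks, 1 gene was called at week 0, 0 at week 3, 1 at week 7 and 2 at week 11, and 1 (SOX9) in the comparison of doses, where the same fits without the block gave 1, 3, 2, 2 and 0. Without the replicate block, the change from week -3 to week 15 had 3 genes called in placebo animals in place of 1 and 1 in the difference between the arms in place of 0, and that from week -3 to week 23 had 1 in place of 0. The block changed no other count of the 10 genes by more than 1.5 times. Without animals with a muscle-rich biopsy these counts were 2, 1 and 1, and 5 in place of 2 in wIFN-α animals. The change of IGF2 in wIFN-α animals was 0.029 with limma-voom in place of -0.39, and that of SPP1 -0.070 without the block in place of 0.75, and neither was called. With all 23 biopsies of week -3, 2 pairs passed in the correlation test by both measures (KRT19 and KRT7, MYCN and MYC) in place of 1. By Pearson's r alone 6 pairs passed, and the r of 0.901 between IGF2 and SOX9 was 0.478 without the muscle-rich biopsies of F1016 and F1018. The causes were not tested.

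Over all genes, a fold change above 2 left 1269, 790, 1471, 1534 and 1709 calls at weeks 0, 3, 7, 11 and 15 in place of 2719, 1618, 3205, 3073 and 3327. At week 23, where the fit of that week had 0 calls, 1 fit of all weeks had 243 and 251 with the replicate block. The comparison of doses had 421 calls, 1579 with the replicate block and 33 with week 3 alone as the low dose week. Without animals with a muscle-rich biopsy, the change from week -3 to week 15 had 1941 calls in place of 1130 in placebo animals and 4035 in place of 2078 in the difference, and that to week 23 had 1178 (1259 without the block) in place of 244. Leaving out animals at week 3 and the change to week 23 were chosen after seeing the data. Without a filter, edgeR called AFP higher in the wIFN-α arm at week 7 (log2 fold change 6.35, adjusted p = 0.00122), the week of the high biopsy of M1007, and at week 15 (3.24, adjusted p = 0.016), where DESeq2 gave 0.29 (adjusted p = 0.807) and 1.19 (adjusted p = 0.222). A fit of all weeks called AFP at week 7 (6.27) and MYCN at week 11 (-3.83), and with the replicate block neither (1.47 and -0.83). In most biopsies AFP and MYCN rest on few reads, so differences between the arms in their low levels could be missed at this depth.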
